A study of Mus musculus with 12 samples.

Results

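In ATAC-seq a transposase cuts and tags DNA where chromatin is accessible, and the number of tags in a region reports how open it was. The regions described here are the 873 Olig2+ peaks that were at least 2-fold less open in SgshKO than in WT. A peak was chosen when the lower of its 2 WT values was at least 15 tags, in a library scaled to 10000000 tags, and at least 2 times the higher of its 2 SgshKO values. These closed peaks made up 1.06% of the 82577 peaks in the Olig2+ table and 2.30% of the 38031 peaks with both WT values at 15 or more, which are the peaks that could have been chosen. The 3 deposited tables together held 281974 peaks.

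All libraries came from the forebrain of C57BL/6 mice aged 4 months. Both genotypes were sorted in the same 3 ways: nuclei carrying Olig2 but neither NeuN nor PU.1, nuclei carrying NeuN but neither Olig2 nor PU.1, and live microglia with CD11b, CX3CR1 and low CD45. The SgshKO mice lack the gene for N-sulfoglucosamine sulfohydrolase, a lysosomal enzyme that degrades heparan sulfate, and the labels do not describe the allele. Each genotype had 2 libraries per sort, and the labels do not say whether these came from separate animals or whether the sorts share animals, so the p-values measure only the spread between these libraries.

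Olig2 is carried by oligodendrocyte precursors and by myelinating oligodendrocytes, so the Olig2+ gate takes both. Regions that open and close with cell state lie mostly in introns and between genes, where transcription factors bind enhancers, whereas start sites tend to be open in many cell types. One such factor is the glucocorticoid receptor, a hormone-activated protein that binds a palindromic DNA element and induces genes such as Sgk1, Zbtb16, Klf9 and Fkbp5 in brain cells, oligodendrocytes included.

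The Olig2+ libraries held 15044194 to 19555924 tags, with 30.9% to 31.8% of them in peaks and a median of 22 to 30 reads per peak. All 10 oligodendrocyte markers and all 6 precursor markers had a start-site peak (within 1000 bp) in the Olig2+ table, against 0 of 6 microglial, 1 of 6 astrocyte, 1 of 6 endothelial and 3 of 6 neuronal markers. The summed oligodendrocyte marker signal was 3351 and 3331 tags in WT, against 2726 and 2788 in SgshKO. The summed precursor marker signal was 1032 and 1014 tags in WT and 1072 and 1047 in SgshKO. Fewer mature oligodendrocytes in the gate and less open chromatin in each of them cannot be told apart in these bulk libraries.

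The DNA of 6 closed peaks near start sites is shown: those of Sgk1, Phyhd1, Plin4 and Hif3a, which recur below, and those of Fam107a and Gm35287, which were picked because they hold a match to the motif. The share with a match among the sequences shown is therefore set by the choice, and the shares over all windows are given after them. RefSeq promoter windows (GRCm38.p6, 250 bases before to 50 after each start) were searched for ACANNNTGT, the core of the glucocorticoid receptor's element, and for the longer GNACANNNTGTNC, which contains it. Both read the same on either strand. Capitals mark the match, or are absent where there was none. The stretches at Fam107a, Phyhd1, Plin4 and Hif3a are the bases inside the peak that lie within 250 bases before the start site. At Fam107a, Phyhd1 and Sgk1 the peak reaches further upstream, and at Hif3a further past the start site, where no sequence was searched. The Hif3a stretch is from a peak with 36.3 and 29.7 tags in WT, smaller than the start-region peak described below. The stretches at Sgk1 and Gm35287 are the match with its flanks.
Sgk1, chr10:21993682-21993734, plus strand: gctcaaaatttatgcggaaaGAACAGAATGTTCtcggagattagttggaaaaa
Fam107a, chr14:8309827-8310029, minus strand: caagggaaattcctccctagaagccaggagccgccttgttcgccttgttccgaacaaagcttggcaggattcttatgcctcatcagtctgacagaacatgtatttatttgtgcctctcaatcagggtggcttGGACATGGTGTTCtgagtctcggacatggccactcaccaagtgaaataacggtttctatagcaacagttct
Gm35287 (nearest gene in the table Ptgds), chr2:25478479-25478531, minus strand: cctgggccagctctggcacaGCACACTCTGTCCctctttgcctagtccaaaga
Phyhd1, chr2:30265953-30266141, plus strand: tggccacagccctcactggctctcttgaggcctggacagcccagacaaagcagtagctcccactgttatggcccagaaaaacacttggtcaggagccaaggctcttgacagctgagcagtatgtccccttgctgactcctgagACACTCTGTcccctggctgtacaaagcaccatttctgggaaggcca
Plin4, chr17:56109783-56109988, minus strand: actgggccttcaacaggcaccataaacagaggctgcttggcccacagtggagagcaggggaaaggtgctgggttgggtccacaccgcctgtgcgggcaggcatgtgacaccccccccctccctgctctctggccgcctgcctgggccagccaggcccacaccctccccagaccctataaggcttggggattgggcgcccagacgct
Hif3a, chr7:17062428-17062610, minus strand: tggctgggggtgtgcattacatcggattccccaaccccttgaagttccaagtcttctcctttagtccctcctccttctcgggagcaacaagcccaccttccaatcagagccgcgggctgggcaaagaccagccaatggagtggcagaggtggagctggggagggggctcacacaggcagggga

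The matches were centred 112 bases before the start site at Fam107a, 168 at Gm35287, 182 at Sgk1 and 103 at Phyhd1, where only the shorter core was present. From another start site of the same gene, the match was 43 bases after it at Gm35287 and 114 before it at Fam107a. At Sgk1 the longer match began at the last base of the closed peak, so nearly all of it was outside. Map7d2 held the longer match GGACACAGTGTTC, centred 16 bases after its start site. Of the 32 promoter windows that overlapped a closed peak, 6 (18.8%), of 4 genes, held the longer match. It was held by 0.475% of all 32851 windows and by 0.291% of the 10305 windows at peaks that could have been chosen but were not. The shorter core was in 8 of the 32 windows (25%), against 6.85% of all windows and 3.22% of those at the other peaks. Among the 8, the core of E230001N04Rik, whose peak is nearest to Armc12, lay outside the closed peak, as that of Sgk1 did. By gene, 4 of 26 held the longer match and 6 of 26 the core, against 26 and 316 of 9106 at the other peaks. Windows of 1 gene overlap one another, and a match is a run of letters, not a measured binding site.

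As the rule requires, WT and SgshKO libraries did not overlap at any closed peak. The median closed peak had 30.1 and 31.2 tags in WT and 10.4 and 10.6 in SgshKO. WT means ran from 15.2 to 575 tags and SgshKO means from 1.30 to 247, and no closed peak was at 0 in any SgshKO library. The median log2 change (SgshKO minus WT, after adding 1) was -1.44, with a range of -3.40 to -0.96, where the median of all peaks that could have been chosen was -0.10. The ratio of the lower WT to the higher SgshKO value had a median of 2.37, and it reached 3 at 182 peaks and 5 at 32. By limma, 11.7% of the peaks in the Olig2+ table were called lower and 8.17% higher at an adjusted p under 0.05. All 873 closed peaks were among those called lower, which follows from the rule.

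The thresholds cut through a continuum. The members nearest the ratio threshold were at Gm21284 (2.002), Mir669h (2.003) and Mobp (2.003), and the nearest peaks left out were at Stxbp6 (1.999), P4ha1 (1.998) and Acoxl (1.997). On the minimum, peaks near 9130227L01Rik, B230216N24Rik and Tom1l1 entered with a lower WT value of 15.04 tags. Peaks near 4933400F21Rik, Cand1 and Ppfia2 stayed out at 14.83.

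The 12 peaks with the highest ratios were mostly small peaks far from start sites. The highest was an intergenic peak 10.5 kb from Gm13271 (chr4:88744297-88744509), with 19.7 and 18.9 tags in WT and 1.84 and 1.33 in SgshKO. An intronic peak of Fkbp5 (chr17:28420149-28420384, intron 5 of 10) followed with 16.6 and 17.9 tags in WT and 1.84 and 1.33 in SgshKO. Fkbp5 encodes a co-chaperone that restrains the glucocorticoid receptor. Both rest on 2 or 3 reads in each SgshKO library, so their exact ratios are uncertain.

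Of the 12, 3 were large peaks. At the 3′ end of Sgk1, a kinase gene induced by glucocorticoids (chr10:22000104-22000781), WT had 221 and 216 tags and SgshKO 31.4 and 21.3. An intergenic peak 52.9 kb from Pdk4, a kinase that holds back pyruvate oxidation (chr6:5443286-5443497), had 113 and 106 tags in WT and 15.99 and 9.31 in SgshKO. One 86.9 kb from Actl7b (chr4:56654424-56654633) had 98.6 and 76.2 tags in WT and 4.92 and 10.6 in SgshKO. Its log2 change, -3.40, was the largest of all 873. The other 7 lay in introns of Slc24a3, Stpg2, Plcl1, Nrxn3 and Apbb2, or between genes near Dtnb and 1700044K03Rik, with ratios of 6.85 to 8.34.

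**Figure D1:**
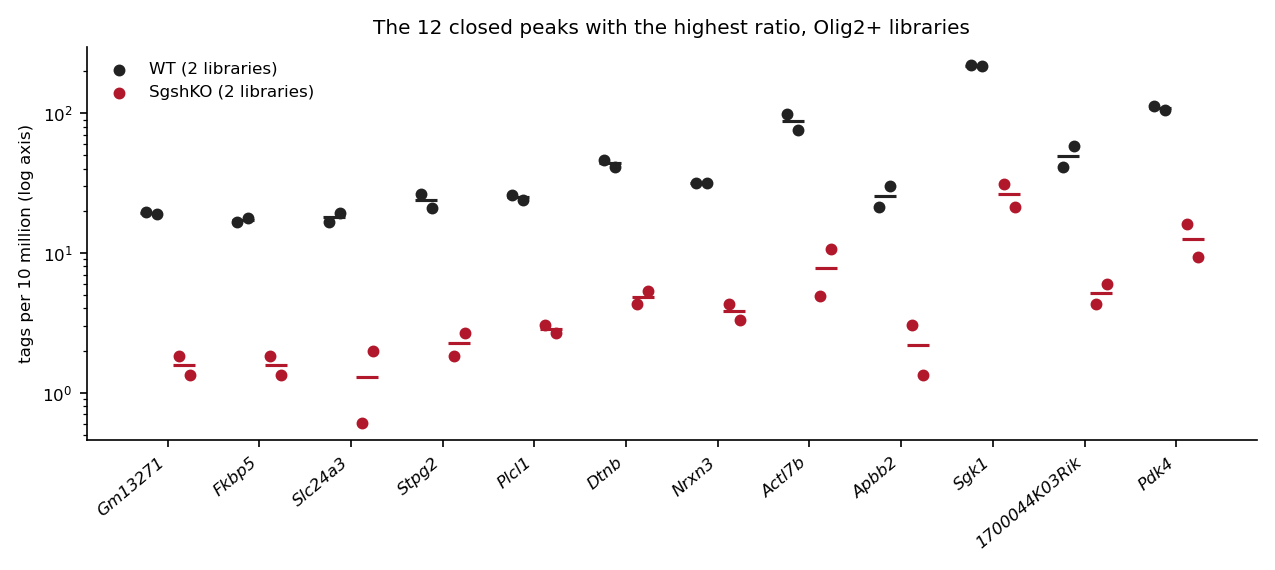
Normalized tags per library of 10000000 (log axis) in each of the 4 Olig2+ libraries at the 12 closed peaks with the highest ratio, named by the gene they lie in or else the nearest gene; bars are the means of 2 libraries. The SgshKO points lie below the WT points at every peak because the rule chose them so, and the Sgk1, Pdk4 and Actl7b peaks stand out by their WT level.

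Closed peaks lay away from start sites. Introns held 499 of them (57.2%, against 39.3% of all peaks that could have been chosen) and intergenic DNA 277 (31.7% against 22.6%). Promoter-TSS peaks, in the files' own annotation, numbered 37 (4.24% against 29.8%). The remaining closed peaks were 23 in 3′ UTRs, 20 at transcription ends, 14 in exons, 2 in non-coding genes and 1 in a 5′ UTR. The median distance to a start site was 22998 bp, against 5121 bp, and 51 closed peaks (5.84%, against 36.5%) were within 1000 bp of one. The largest bin of distance was 10 to 50 kb, with 45.4% of closed peaks against 26.3%. Peak width was similar, with medians of 233 and 241 bp. Of the intronic peaks, 155 sat in one gene while the nearest start site belonged to another, so the nearest gene is a label of position and not of a target.

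**Figure D2:**
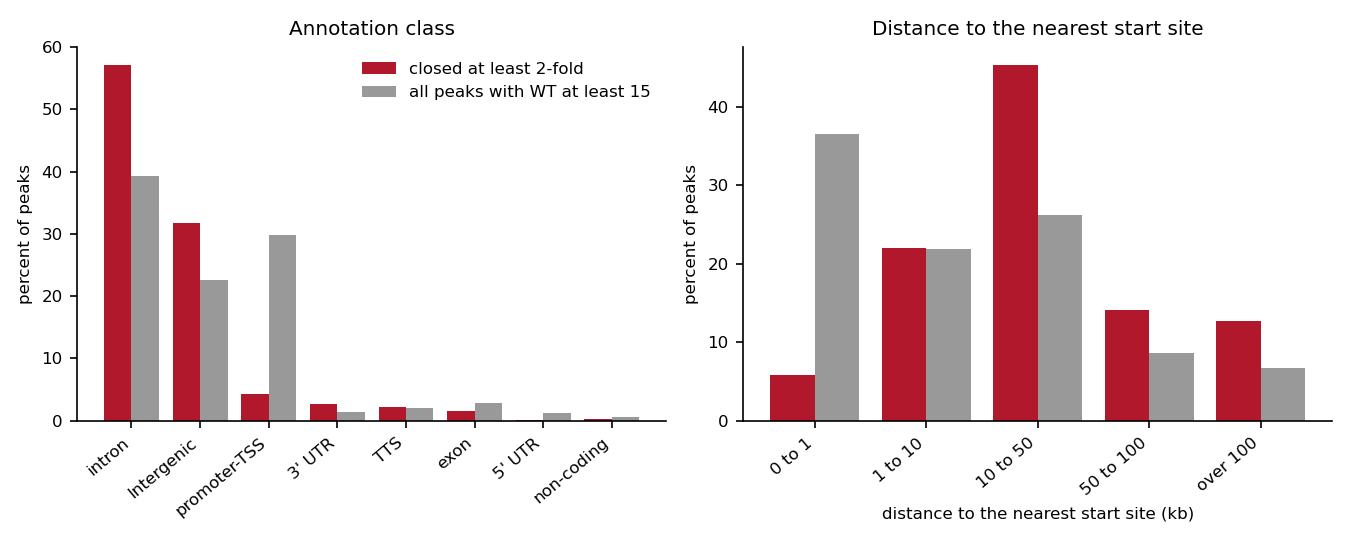
Percent of the 873 closed peaks (red) and of the 38031 peaks with both WT values at 15 or more (grey) in each annotation class (left) and bin of distance to the nearest start site in kb (right). Start-site classes hold 4.24% of closed peaks against 29.8%, and the bin of 10 to 50 kb holds 45.4% against 26.3%.

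Among the 51 closed peaks near start sites, the 10 with the most WT signal included those of Phyhd1, Plin4 and Hif3a. The Phyhd1 promoter peak (chr2:30265854-30266141) had 270 and 267 tags in WT and 43.0 and 52.5 in SgshKO. The promoter peak of Plin4, a lipid-droplet coat protein (chr17:56109771-56109988), had 211 and 211 tags in WT and 46.7 and 40.6 in SgshKO. At the start region of Hif3a, a hypoxia-inducible factor subunit (chr7:17056027-17056262, intron 2 of 14), WT had 241 and 241 tags and SgshKO 89.8 and 95.7. Each of these 3 genes had further closed peaks around it, in the runs described below.

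Zfp788, a zinc-finger gene, had the highest WT level of the 51, with 313 and 328 tags in WT and 152 and 142 in SgshKO. Map7d2, which encodes a microtubule-binding protein, had 122 and 106 tags in WT and 36.3 and 33.2 in SgshKO. Fam107a, an actin-associated stress-responsive gene, had 62.2 and 60.9 in WT, against 17.2 and 16.6 in SgshKO. The others of the 10 highest were 3110070M22Rik, Mgat3 (a glycosyltransferase), Csad (an enzyme of taurine synthesis) and 9330159F19Rik, with ratios of 2.09 to 2.97.

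Closed peaks were spread over the chromosomes, from 1.63% of the peaks that could have been chosen on chromosome 15 to 3.12% on chromosome 9. Within 5 Mb of Sgsh itself, on chromosome 11, 4 of 628 such peaks (0.637%) were closed. Both of those nearest Sphk1 lay in Ube2o introns, and the others were in introns of Mfsd11 and Cyth1.

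When neighbours no more than 100 kb apart were joined, the 873 peaks fell into 626 groups. Of these, 506 were single peaks, 81 were pairs and 39 were runs of 3 or more, which held 205 peaks (23.5%). In all, 666 genes were nearest to a closed peak, and 30 of them to 3 or more. Runs gather where Olig2+ peaks are dense, so the number of other peaks in each is given beside it.

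The longest run was at Mobp, which encodes a myelin-associated basic protein, with 22 closed peaks over 63.5 kb (chr9:120120547-120184003), 18 of them inside the gene. Their summed signal was 962 and 974 tags in WT and 375 and 348 in SgshKO. The other 36 peaks in the run had a median log2 change of -0.83, so openness was lower along the locus and not at the closed peaks alone. The Mobp start-site peak had 188 and 177 tags in WT and 95.9 and 107 in SgshKO, a ratio of 1.65 that falls short of the rule.

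Klf13 and Plin4 carried the next runs. In and around the single intron of Klf13, which encodes a Krüppel-like transcription factor, 18 of 25 peaks were closed (chr7:63858559-63934807), and their nearest start site was mostly that of the non-coding gene E030018B13Rik. The summed signal was 820 and 802 tags in WT and 271 and 280 in SgshKO. The run at Plin4 and Plin5, both lipid-droplet coat genes (chr17:56005783-56113681), held 12 closed peaks among 31, with sums of 1073 and 1075 in WT, against 309 and 309 in SgshKO. The other 19 peaks there had a median of -0.59.

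The next runs lay at a transcription regulator and at a kinase. Zbtb16, a zinc-finger repressor also called PLZF, and its neighbour Nnmt, a methyltransferase gene (chr9:48646212-48749469), had 9 closed peaks among 19. Summed, they had 530 and 553 tags in WT against 144 and 122 in SgshKO. The highest single one (chr9:48737514-48737845, intron 3 of 6) had 213 and 212 in WT and 56.6 and 35.2 in SgshKO. Sgk1 had 8 closed peaks among 15 within 10.1 kb (chr10:21992558-22002611), with sums of 521 and 509 tags in WT and 93.4 and 101 in SgshKO. The peak at the 3′ end carried 221 and 216 of those WT tags.

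At Hif3a all closed peaks lay within 6.58 kb (chr7:17056027-17062610), 5 of 8 peaks there. The strongest, in intron 1 of 14 (chr7:17058142-17058511), had 529 and 557 tags in WT and 93.5 and 89.1 in SgshKO. The run between Fkbp5 and Armc12 (chr17:28420149-28523370) had 6 closed peaks among 9, with sums of 264 and 272 tags in WT and 53.5 and 56.5 in SgshKO. The run at Klf9, a Krüppel-like factor gene induced by glucocorticoids, and Trpm3 (chr19:22939400-23056617) had 7 among 12, at sums of 270 and 269 in WT and 105 and 93.7 in SgshKO. Its peaks lay upstream of Klf9, at 127 kb, 126 kb, 106 kb and 84.7 kb for the 4 with the highest ratios.

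Mbp, which encodes myelin basic protein, had many open peaks of which few were closed, 6 among 92, with sums of 386 and 346 tags in WT and 146 and 146 in SgshKO. The other 86 had a median log2 change of -0.48. A run over 124 kb around Phyhd1, Lrrc8a and Tbc1d13 (chr2:30142901-30266824) held 5 closed peaks among 12, with summed signals of 428 and 432 tags in WT, against 81.8 and 100 in SgshKO. The remaining runs of 6 lay in Ppp1r16b, with 45 peaks that could have been chosen, and in Phactr3, with 9.

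Closed clusters and start sites did not always go together. A gene can have several peaks within 1000 bp of a start site, and the one nearest a start site was taken for each gene. By that choice the peaks of Sgk1 (ratio 1.28), Zbtb16 (1.503), Klf9 (1.42) and Mbp (1.32) were lower in both SgshKO libraries than in both WT libraries but short of the rule. Sgk1 had 5 such peaks, and the closed ones at chr10:21992558-21992795 (38.4 and 41.9 tags in WT, 10.4 and 14.6 in SgshKO) and chr10:21993463-21993702 (32.7 and 23.5 in WT, 10.4 and 5.98 in SgshKO) were much smaller than the one used. The start-site peak of Ddit4, a stress-induced inhibitor of mTOR signalling with 3 closed peaks nearby, had 530 and 526 tags in WT and 495 and 589 in SgshKO, and its groups overlapped. At Plin4, Hif3a and Phyhd1 the start-site peaks were themselves closed.

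**Figure D3:**
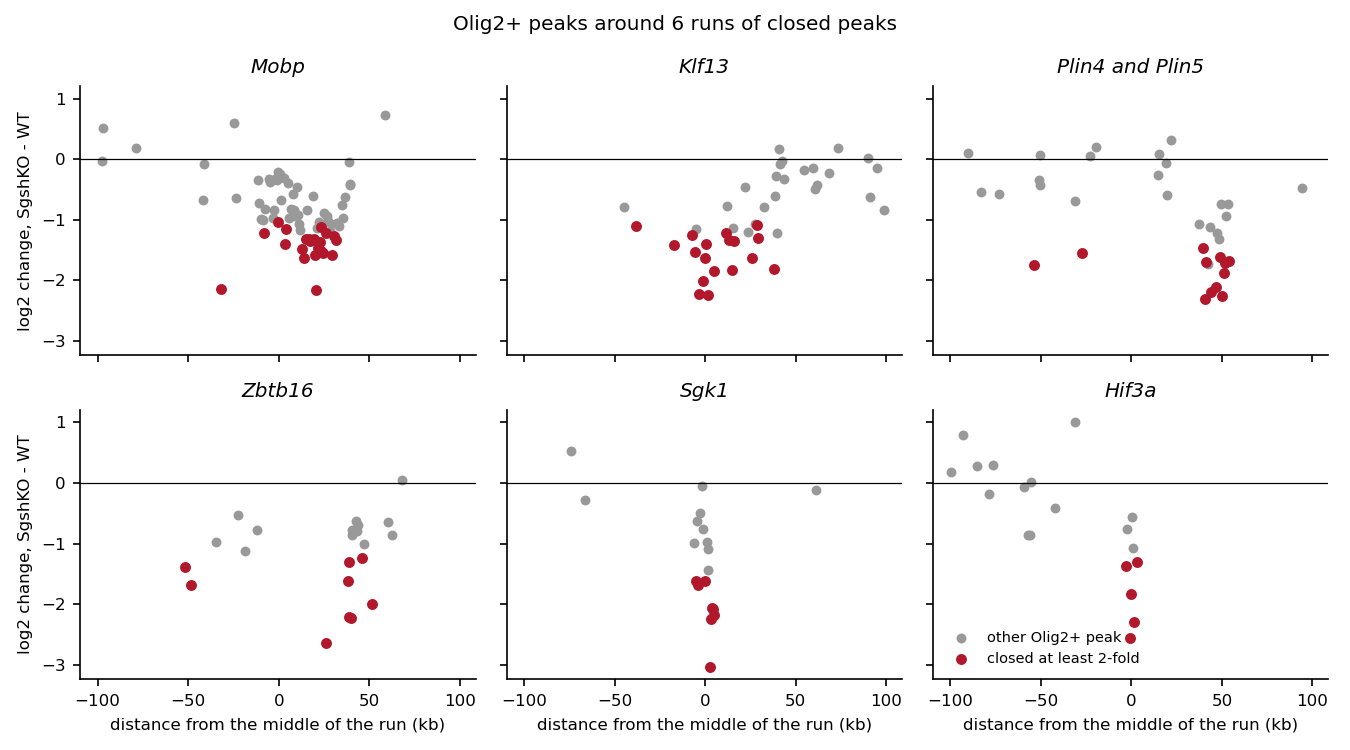
Log2 change in Olig2+ nuclei (SgshKO minus WT, mean of 2 libraries each, after adding 1) of every peak with both WT values at 15 or more within 100 kb of the middle of 6 runs, against distance in kb; red points are closed peaks, grey points are the others. At Mobp most grey points also lie below 0 (4 of 50 above), while at Hif3a the closed peaks sit in one narrow cluster and 6 of 14 grey points are above 0.

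Gene lists gave a similar picture. Glucocorticoid-responsive genes were nearest to 45 closed peaks among 209 that could have been chosen (21.5%, against 2.30% of all), from 11 genes: Plin4 (10), Sgk1 (8), Zbtb16 (7), Klf9 (6), Hif3a (5), Ddit4 (3), Dusp1 (2) and Cdkn1a, Errfi1, Klf15 and Pdk4 (1 each). The list was assembled with earlier results of these data known, so its count is a description and not independent evidence. The list's median log2 change over those 209 peaks was -0.63, against -0.10 over all. Of all 416 peaks of the list, 170 were called lower and 8 higher, where 11.7% and 8.17% of all Olig2+ peaks were. Members of the list without a closed peak included Per1 and Tsc22d3 (medians of -0.40 and -0.49), Fkbp5, whose closed intronic peak counts under another gene, and Nr3c1, the receptor gene itself (0.26).

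In that list, Klf15 had a closed peak in intron 2 of 2 with 26.4 and 26.1 tags in WT and 3.69 and 6.65 in SgshKO. The peak 16.9 kb from Errfi1, an inhibitor of EGF receptor signalling, had 130 and 151 tags in WT and 43.6 and 43.9 in SgshKO. At Dusp1, a MAP kinase phosphatase gene, both closed peaks were intergenic, with ratios of 2.66 and 2.62.

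Myelin and mature oligodendrocyte genes were nearest to 37 closed peaks among 419 (8.83%), and 29 among 401 (7.23%) without Sgk1, which is on both lists. These came from Mobp (21), Mbp (6), Anln (1) and Fa2h (1). Over the 785 peaks of the list, Sgk1 included, 198 were called lower and 24 higher, where 11.7% and 8.17% of all Olig2+ peaks were. The other 21 genes of the list, including Mog, Mag, Cnp and Myrf, had no closed peak. Medians of those genes ran from -0.75 at Aspa to 0.33 at Ermn, and Mag, Myrf, Opalin and Trf were at -0.06 to -0.01. The summed oligodendrocyte marker signal given above was also lower in both SgshKO libraries, and its part in these closed peaks was not tested.

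No closed peak was nearest to a gene of the precursor (142 peaks that could have been chosen), astrocyte (25), microglia (17) or endothelial (14) lists. The lysosome list had 1 among 131, in Psap (28.5 and 37.8 tags in WT, 12.9 and 9.31 in SgshKO), the precursor of the saposins. The immediate early list had 3 among 109, at Dusp1 and Fosb. The clock list had 1 among 94 (Per2), the cholesterol list 1 among 62 (Insig1) and the neuron list 1 among 14 (Tubb3). These shares are near or below the 2.30% of all peaks, apart from the neuron list, which rests on 1 peak.

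Most closed peaks had no counterpart in the other sorts. An overlapping NeuN+ peak existed for 231 of them (26.5%, against 56.9% of all peaks that could have been chosen) and a microglia peak for 159 (18.2%, against 48.4%). Both were present for 94, and neither for 577 (66.1%, against 36.8%). Among peaks over 1000 bp from a start site the share in neither was 67.6%, against 54.4%. The NeuN+ and microglia values were not used to choose the peaks, and the counts that follow are tests by limma over the whole of each table.

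In NeuN+ nuclei the closed places were mostly lower in SgshKO, as were the other places with an Olig2+ peak. Of the 231, 75 (32.5%) were called lower, 6 higher and 150 neither. Over all NeuN+ peaks, 19.6% were called lower and 10.2% higher. At all peaks that could have been chosen, 46% were called lower and 1.47% higher, and at those over 1000 bp from a start site 28.4% and 2.05%. Of the closed places over 1000 bp from a start site, 70 of 210 (33.3%) were called lower. The median log2 change was -0.45 at closed places, -0.51 at all places that could have been chosen and -0.23 over the NeuN+ table. Over 1000 bp from a start site it was -0.46 at closed places and -0.42 at all places that could have been chosen. Median levels at closed places were 18.1 and 16.9 tags in WT, against 12.6 and 13.97 in SgshKO. Without each SgshKO library in turn the NeuN+ fit called no peak of the whole table (33265 and 32556 peaks had an unadjusted p under 0.05), and 71 and 76 of the closed places had a lower value at an unadjusted p under 0.05.

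The NeuN+ calls also depended on scaling. The share of tags in peaks was lower in SgshKO (21.2% and 21.5%) than in WT (25.9% and 26.7%), and the part of this in the calls was not tested apart from the scaling. Scaled to the tags in peaks, 32 closed places (13.9%) were called lower and 15 (6.49%) higher, against 8.86% and 17.6% of all NeuN+ peaks, and the median of the table moved from -0.23 to 0.05. The closed places stayed 0.22 to 0.23 log2 units below the table's median under both scalings. With scaling to tags in peaks, 24.5% of all peaks that could have been chosen were called lower. The share was 12.2% for those over 1000 bp from a start site. The medians of these sets were -0.22 and -0.14, against -0.18 at closed places, so lying below the table's median was not particular to closed places. With edgeR on the recovered reads 41 (17.7%) were called lower and 13 (5.63%) higher, against 11.5% and 15.8% of all NeuN+ peaks. With DESeq2 16 (6.93%) were called lower and 3 (1.30%) higher, against 2.07% and 2.48%. Of all peaks that could have been chosen, edgeR called 31.2% lower and DESeq2 9.19%. Over 1000 bp from a start site these shares were 16.4% and 2.38%. The summed neuronal marker signal in that table was 600 and 538 tags in WT and 300.2 and 317 in SgshKO, and the summed oligodendrocyte marker signal 212 and 182 in WT and 99.8 and 107 in SgshKO. Their part in the NeuN+ values was not tested.

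A set of 12 places, picked out after their values were seen, fell by 2 log2 units or more in NeuN+ nuclei. Of these, 9 were intergenic, 11 had a microglia peak as well, and their median width was 203.5 bp. The strongest was 26.3 kb from Rpp21 (chr17:36231458-36231658), at 591 and 570 NeuN+ tags in WT and 69.1 and 60.3 in SgshKO (log2 change -3.15 ± 0.09 SE, limma adjusted p = 2.56e-13). The same place had 189 and 192 Olig2+ tags in WT and 74.4 and 64.5 in SgshKO, and 619 and 487 microglia tags in WT and 420 and 323 in SgshKO. Places near Cd209a, Gm28590, Timm8a1 and Kpna1 and in Il1rapl1 behaved alike, with NeuN+ log2 changes of -3.14 to -2.48 and adjusted p-values from 2.25e-11 to 1.09e-10 in limma. Over the 12 places, WT means were 76.6 to 581 NeuN+ tags, where the median over all closed places with a NeuN+ peak was 17.0. Whether reads place uniquely there was not tested. Without these 12, 63 of 219 closed places (28.8%) were called lower in NeuN+ nuclei, with a median of -0.41.

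Among the glucocorticoid-responsive list, 15 closed places had a NeuN+ peak, of which 4 fell (26.7%, against 32.5% of all closed places) and 0 rose. The 15 are too few to compare the shares. The place in intron 2 of Hif3a had 118 and 106 NeuN+ tags in WT and 53.0 and 52.1 in SgshKO (log2 change -1.07 ± 0.14 SE, limma adjusted p = 2.6e-05). The place 52.9 kb from Pdk4 had 13.6 and 20.3 NeuN+ tags in WT and 5.58 and 5.71 in SgshKO (-1.41 ± 0.31 SE, limma adjusted p = 0.0031). The other called places were both in Zbtb16, at -0.64 and -0.53. At Klf13 3 of 9 places with a NeuN+ peak fell, and at Mobp 0 of 2, which are too few to set against the 32.5%.

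In microglia few places were called, and more of them lower than higher. Of the 159 closed places with a microglia peak, 10 (6.29%) were called lower and 3 (1.89%) higher. Over all microglia peaks, 2.33% were called lower and 5.05% higher. At all peaks that could have been chosen the shares were 1.27% and 11.5%, and over 1000 bp from a start site 2.64% and 4.88%. Of the closed places over 1000 bp from a start site, 10 of 138 (7.25%) were called lower. The median log2 change was -0.29 at closed places, 0.12 at all places that could have been chosen and -0.08 over the table. Over 1000 bp from a start site it was -0.33 at closed places and -0.18 at all places that could have been chosen. Median levels at closed places were 38.0 and 31.3 tags in WT, against 31.2 and 21.4 in SgshKO, so the lower WT and the higher SgshKO library nearly met.

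Single libraries moved these microglia values. Without WT replicate 1, 1 closed place was called lower and 0 higher, against 0.0349% and 1.23% of all microglia peaks. Without WT replicate 2, 1 was called lower and 2 higher (0.0174% and 0.59% of all), so the lean was not seen there. Without SgshKO replicate 1 the counts were 42 lower and 6 higher (14.1% and 6.44% of all), and without SgshKO replicate 2 they were 17 and 16 (5.15% and 12.9% of all). Without SgshKO replicate 2 the median at closed places was 0.00, while that of the table was 0.15. With edgeR 22 were called lower and 11 higher (5.25% and 10.2% of all microglia peaks), and with DESeq2 6 and 4 (0.483% and 4.79%).

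Markers of other cells also moved in the microglia table. The summed precursor signal, from 3 of 6 markers with a peak, was 178 and 147 tags in WT, against 117 and 105 in SgshKO. The neuronal signal, from 1 of 6 markers, was 25.9 and 32.2 in WT, against 49.4 and 41.8 in SgshKO. The oligodendrocyte signal (5 of 10 markers) was 566 and 513 in WT, against 650 and 487 in SgshKO, and the microglial signal (5 of 6) 1450 and 1302, against 1612 and 1169, and in both of these the genotypes overlapped. Their part in the microglia values was not tested.

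The largest microglial loss was in intron 3 of 6 of Zbtb16 (chr9:48723762-48723995). Microglia had 57.9 and 55.9 tags there in WT and 6.93 and 5.57 in SgshKO (log2 change -3.00 ± 0.43 SE, limma adjusted p = 1.6e-05). Olig2+ nuclei had 25.9 and 33.8 in WT and 2.46 and 5.98 in SgshKO. In NeuN+ nuclei the same place had 41.4 and 28.2 tags in WT and 22.3 and 20.9 in SgshKO (-0.64 ± 0.22 SE, limma adjusted p = 0.0396). This place, one near Nnmt and one near Cd209a were the 3 that were called lower in all 3 tables. They were 3 of the 94 closed peaks that had a peak in both other sorts, and their Olig2+ call follows from the rule. The matching share of all peaks that could have been chosen was not counted. The Cd209a place belongs to the set with strong NeuN+ falls described above, where unique placement of reads was not tested.

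The pair of closed places at Nnmt, in the same run as Zbtb16, were both called lower in microglia, at -1.54 and -1.95. A place near Pik3r1, which encodes the regulatory subunit of PI 3-kinase, had 63.1 and 62.7 microglia tags in WT and 16.4 and 17.6 in SgshKO (-1.82 ± 0.38 SE, limma adjusted p = 0.002). The large peak at the 3′ end of Sgk1 had 236 and 239 microglia tags in WT and 119 and 139 in SgshKO (-0.88 ± 0.28 SE, limma adjusted p = 0.0437). It had no NeuN+ peak. The other called places were near Tom1l1 and Cdk5r1 and in Wbp1l and Clmn, at -1.89 to -1.03. The glucocorticoid-responsive list had 11 closed places with a microglia peak, of which 2 were called lower (18.2%) and 0 higher. These are too few to set against the 6.29% of all closed places.

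At Klf13, the 9 places with a microglia peak had log2 changes from -0.70 to 0.99 with a median of 0.27. None of the 9 was called, where 6.29% of all closed places were called lower, so the count is too small to compare, and the difference between sorts was not tested.

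**Figure D4:**
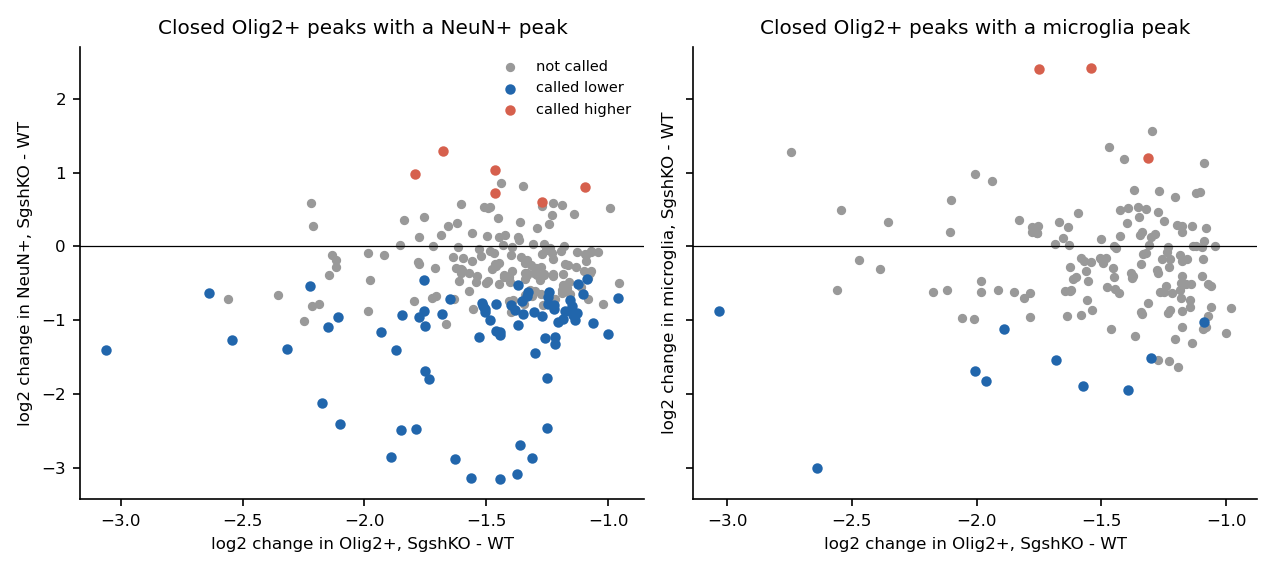
Log2 change (SgshKO minus WT, on log2 of tags plus 1) at closed Olig2+ peaks with an overlapping NeuN+ peak (left, 231) or microglia peak (right, 159), against the Olig2+ log2 change; colours give the limma call in the other sort. The Olig2+ axis is below 0 for all points by the rule; 75 NeuN+ and 10 microglia places are called lower, and 12 NeuN+ places lie at -2 or below.

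The share called lower was followed over bands of the Olig2+ ratio, among peaks over 1000 bp from a start site. In NeuN+ nuclei it was 28.8% where the ratio was below 1, 28.2% from 1 to 1.25, 27.9% from 1.25 to 1.5, 26.2% from 1.5 to 2 and 33.3% at 2 or more, and so changed little below a ratio of 2. Over all peaks, start sites included, it went from 50.5% through 42.4%, 33.7% and 28.2% to 32.5%. Without the 12 places that fell by 2 log2 units or more, that last share was 28.8%. For places over 1000 bp from a start site alone this was not counted, so a step at a ratio of 2 is not read from the NeuN+ bands. The limit on distance was added after seeing the data. In microglia it was 2.14%, 2.47%, 3.48%, 3.59% and 7.25% over the same bands, while the share called higher went from 6.25% through 3.76%, 3.38% and 3.23% to 2.17%. The median microglial log2 change over the bands was -0.09, -0.21, -0.29, -0.37 and -0.33. The last band holds 138 microglia places, of which 10 were called lower and 3 higher.

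**Figure D5:**
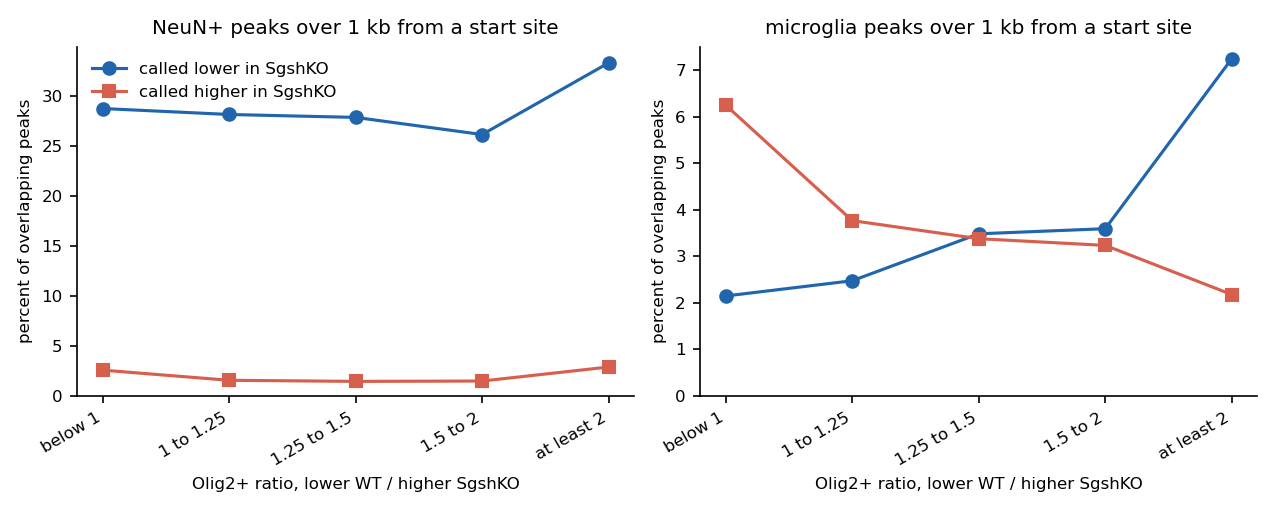
Percent of overlapping NeuN+ (left) and microglia (right) peaks over 1 kb from a start site that limma called lower or higher in SgshKO, by the Olig2+ ratio of the lower WT to the higher SgshKO value; axes start at 0 and differ between panels. In microglia the share called lower goes from 2.14% in the lowest band to 7.25% in the highest, and in NeuN+ nuclei from 28.8% to 33.3%. Without the 12 NeuN+ places at -2 or below, 28.8% of closed places at any distance were called lower, in place of 32.5%.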

How the data were processed

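ATAC-seq tables of 3 sorts, with 2 WT and 2 SgshKO libraries each, were used. The authors deposited 1 table per sort, whose signal is the tags in each peak with every library scaled to 10000000 tags, per the file headers. Peaks were merged over the 4 libraries of a sort, per the names in the tables. The submitters' processing notes name Bowtie2, HOMER and build mm10, with no versions or roles. The handling of duplicate and multiply mapped reads is not given in the sources used here. Library totals were 10771659 to 19555924 tags, and dividing out the scaling gave whole reads for 100% of values (within 0.02 of a whole number). Every tag column matched a sample title.

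Gene symbols that had become dates (168 peaks in the Olig2+ table) were restored from Entrez numbers, 99.9% of which were in the RefSeq table of GRCm38.p6, whose promoter sequences were also used. Coordinates are those of the files.

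Within each table log2(tags + 1) was compared with limma 3.58.1 in R 4.3.3 (intensity trend, two-sided, Benjamini-Hochberg adjusted over the table, called under 0.05), after tests on simulated data. This scale understates changes of low peaks. Peaks of 2 tables were matched by an overlap of 1 bp or more. The alternatives tried were other pseudocounts (0.5 and 5), a fit without the weakest 25% of peaks, other scalings, edgeR 4.0.16 and DESeq2 1.42.0 on the recovered reads, a replicate block, leaving out each library, a reciprocal overlap of 50% and other thresholds. A restriction to peaks over 1000 bp from a start site was added after seeing the data.

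The closed peaks, gene lists and tests were chosen with earlier results of these data known. The peaks named were the 12 with the highest ratio (SgshKO values under 3 reads set to 3 reads), the 10 longest runs and genes with 3 or more closed peaks, the 10 with the highest WT mean within 1000 bp of a start site, the 6 smallest p-values per table and direction in NeuN+ nuclei and microglia, the 3 nearest each threshold, those within 5 Mb of Sgsh and up to 3 per gene list. Others named beside them were chosen after their values were seen.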

Additional observations from a re-analysis of the deposited data

Results flagged for a closer look

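A few places lost openness in both Olig2+ SgshKO libraries but gained it in both SgshKO libraries of another sort. The difference between the sorts was not tested. Over all peaks of a sort, 10.2% were called higher in NeuN+ nuclei and 5.05% in microglia. At peaks that could have been chosen over 1000 bp from a start site, the shares were 2.05% and 4.88%. The places here are the 6 of 231 (2.60%) in NeuN+ nuclei and 3 of 159 (1.89%) in microglia, near or below those shares. In NeuN+ nuclei these were near or in Slc38a4 (log2 change 1.04, from 24.4 and 28.2 tags in WT to 55.8 and 54.0 in SgshKO), Kcns1 (1.30), Bend5 (0.98), Dbpht2 (0.72), 4930444P10Rik (0.81) and Osbpl11 (0.60). The last 3 were the least stable: the call was lost in 6 of 13 refits at 4930444P10Rik (adjusted p from 0.0103 to 0.311 over them) and in 5 of 13 at Dbpht2 (0.00251 to 0.177) and Osbpl11 (0.000681 to 0.177), with DESeq2 among them. The Olig2+ values at the Slc38a4 place were 123 and 146 tags in WT and 46.1 and 49.8 in SgshKO. In microglia they were in Galnt2 (2.43, from 2.59 and 5.08 tags to 31.2 and 18.6), near Jade2 (2.41, from 2.59 and 5.08 tags to 33.8 and 16.7) and in Adssl1 (1.20, from 94.2 and 107 tags to 238 and 227). At Galnt2 and Jade2 the WT value of 2.59 stands for 3 reads, so these changes start near the floor. The Jade2 place was called lower in NeuN+ nuclei (-1.69), so it moved one way in both sorts of nuclei and the other way in microglia.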

How the results depend on the processing

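The number of closed peaks was 796 with scaling to tags in peaks, 696 by median of ratios (all of them among the 873 in both cases) and 702 by quantile normalization (697 among them). It was 1394 with a WT minimum of 10, 621 with 20, 3168 with a ratio of 1.5 and 182 with 3, and 1643 to 1872 when the rule ran over 3 libraries. The Olig2+ fits without 1 library use the values that chose the peaks, so nothing is read from their calls.

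NeuN+ closed places called lower and higher were 32 and 15 with scaling to tags in peaks, 41 and 13 with edgeR, and 16 and 3 with DESeq2. The shares over all NeuN+ peaks for these are given above. Median of ratios called 40 (17.3%) lower and 13 (5.63%) higher, against 11% and 15% of all NeuN+ peaks. Quantile normalization called 30 (13%) lower and 7 (3.03%) higher, against 5.9% and 9.62%. Of all peaks that could have been chosen, median of ratios called 29.6% lower and quantile normalization 11.9%. Over 1000 bp from a start site these shares were 15.4% and 8.65%. Without 1 library the counts were 0 to 30 lower and 0 to 4 higher. The 0 came without either SgshKO library, when the NeuN+ fit called no peak at all. The NeuN+ median was -0.35 with a pseudocount of 5, -0.18 with scaling to tags in peaks, -0.25 by median of ratios, -0.32 by quantile normalization and -0.26 with edgeR and with DESeq2. It was -0.46 to -0.45 without 1 library.

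With scaling to tags in peaks, 36 (22.6%) microglia closed places were called lower, against 10.3% of all microglia peaks. Called higher were 4 (2.52%), against 5.56%. Median of ratios called 17 (10.7%) lower and 8 (5.03%) higher, against 3.76% and 9.28% of all. Quantile normalization called 26 (16.4%) and 8 (5.03%), against 4.35% and 7.07%. The counts were 22 and 11 with edgeR and 6 lower with DESeq2, with the shares over all peaks given above. Without 1 library the counts were 1 to 42 lower and 0 to 16 higher, and the median -0.57 to 0.00 (0.0045 without SgshKO replicate 2, where the sign turned). In each of these fits that kept all libraries, the share of microglia closed places called lower was above that of distal peaks that could have been chosen. Those distal shares were 15.4% with scaling to tags in peaks, 5.62% by median of ratios and 8.01% by quantile normalization. They were 7.49% with edgeR and 1.09% with DESeq2. The fits without 1 library are not compared in this way. The cause of these differences was not tested.

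With the replicate number as a block, 26 microglia places (16.4%) were called lower and 11 (6.92%) higher, against 6.11% and 9.68% of all. NeuN+ counts were 80 (34.6%) and 7 (3.03%), against 21.9% and 11.3% of all. Deviations of same-numbered libraries correlated at 0.0564 in microglia, 0.00416 in NeuN+ and 0.00505 in Olig2+ nuclei, so the numbers are not taken to pair libraries, and 2 pairs cannot settle it. Among the NeuN+ and microglia places named for their calls, 219 refits kept the call and 50 lost it, 0 with a change of sign; a lone library left in a group is assumed to vary like the other group. Precision rests on 2 libraries per group and on as few as 1 read in a SgshKO library at the lowest closed peaks.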
